A study of Mus musculus with 48 samples.

Results

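The lungs of A/J and C57BL/6J (B6) mice were compared for the difference between strains in the transcriptional response to gas metal arc mild steel (GMA-MS) welding fume at 28 days (4 weeks) of recovery. The comparison took the change from sham to GMA-MS in A/J lungs and subtracted the same change in B6 lungs, and it used 16 of the 48 arrays of the study, 4 from each of 4 groups. These were A/J and B6 mice given phosphate buffered saline (PBS, the sham exposure) and A/J and B6 mice given GMA-MS fume, which is rich in iron. All mice were males bought at 4 weeks of age, were housed singly, and received 4 pharyngeal aspirations over 10 days, the fume at 5 mg/kg each time. Each array held RNA of the whole lung of 1 mouse, so that a group of 4 arrays was a group of 4 mice. The fit also held the 8 arrays of mice given stainless steel (GMA-SS) fume, which share the sham arrays.

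A/J is an inbred strain that readily forms lung tumours, and B6 is a strain that resists them. Inhaled or aspirated particles are taken up by alveolar macrophages, which secrete chemokines and proteases such as macrophage elastase when they are laden. Immediate early genes are transcribed within minutes of a growth factor, calcium or stress signal from promoters that are already accessible, and their transcripts are short lived.

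Every beadchip held 1 array of each of the 6 groups of the time point, at the same position for a group on every chip, so that array position and group cannot be told apart. The beadchip entered the model as a block, and the 4 beadchips give 4 separate readings of the strain difference. The 16 arrays had between 9986 and 11417 probes with a detection p under 0.01, a median of 34 to 36 beads per probe and a median raw intensity of 191.9 to 281. Markers of the lung had, over the 16 arrays, log2 intensities of 15.81 to 15.96 for Sftpc (type 2 cells), 15.87 to 16.03 for Scgb1a1 (club cells) and 15.47 to 15.88 for Ager (type 1 cells). Foxj1, the regulator of ciliated cells, had 7.62 to 8.04 and was detected on 2 of the 16 arrays.

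Of 8687 genes tested, 12 (0.138%) differed between A/J and B6 in their response to GMA-MS at a Benjamini-Hochberg adjusted p under 0.05 in limma. The A/J response was the higher one for 11 genes (0.127%) and the lower one for 1 gene (0.0115%). At an unadjusted p under 0.05 there were 1004 genes, 522 higher (6.01%) and 482 lower (5.55%). All differences are on the log2 scale, where 1 stands for a ratio of 2, and the median over all genes was -0.02. Within a strain the same fit called 114 genes for GMA-MS against sham in A/J (1.31%) and 40 in B6 (0.46%). With 1 array left out there were 26 to 220 such genes for A/J and 13 to 26 for B6, and without the beadchip block 17 and 7. Over all genes the responses of the strains correlated at r = 0.221, a value across genes that are not independent and that share normalization. Without the beadchip block 3 genes were called (Egr1, Hmgb1 and Mmp12), from 401 at an unadjusted p under 0.05. In whole lung RNA, fewer cells of a type and less RNA per cell cannot be told apart.

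The 12 genes fell into 3 patterns. Egr1, Fos and Ccn1 were lower after GMA-MS in B6 lungs and did not pass the test in A/J lungs. Mmp12 was higher after GMA-MS in A/J lungs. In the other 8 genes the responses were between -0.42 and 0.42: Hmgb1, Calcrl, Vps4b, Pcna, Vhl, Zfp322a and Kdm3b were positive in A/J and negative in B6, and Mmrn2 was negative in A/J and positive in B6. The signs were opposite in Fos and Ccn1 too, with values of 0.09 and 0.15 in A/J that did not pass. The response itself passed the test in A/J for 6 of the 12 genes and in B6 for 6, with Hmgb1 and Vhl in both counts and Zfp322a and Mmrn2 in neither.

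**Figure D1:**
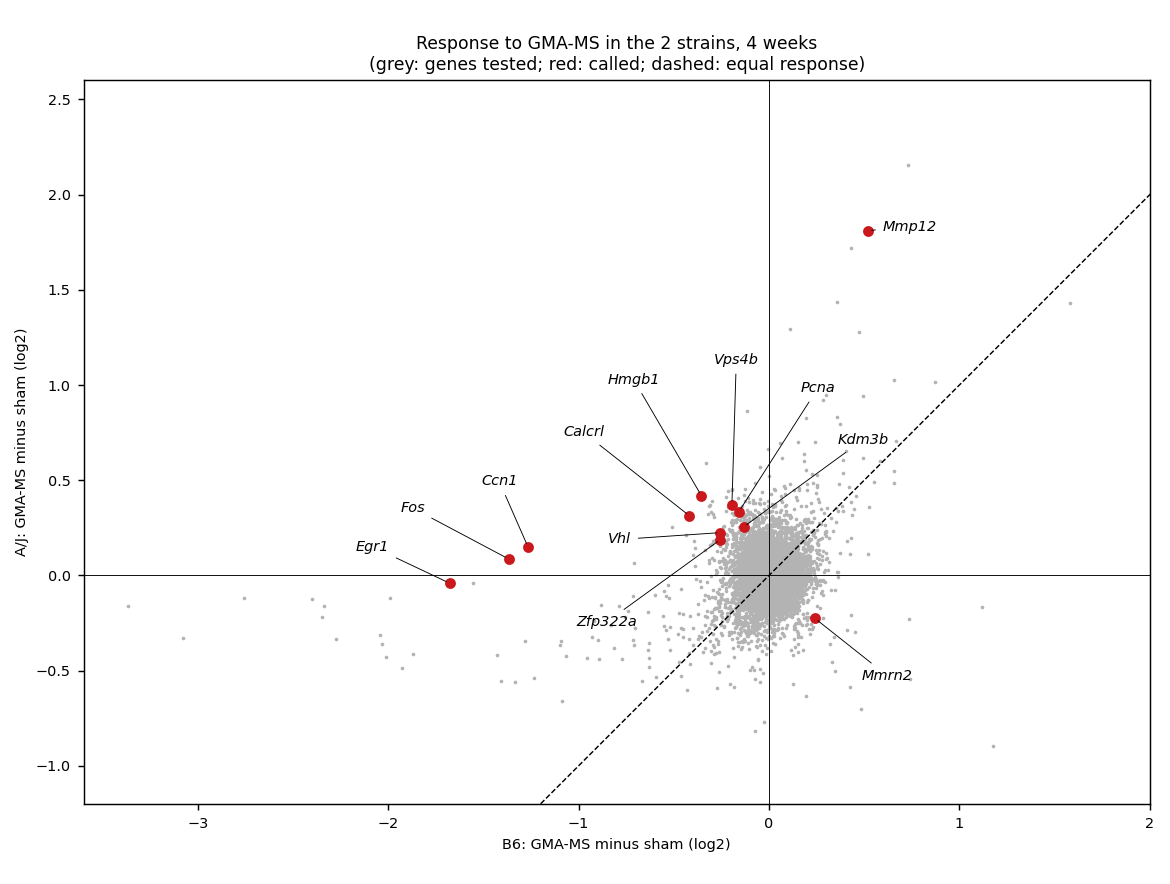
Change from sham to GMA-MS in B6 lungs (x axis, log2) against that in A/J lungs (y axis, log2) at 4 weeks, with 1 point for each of 8687 genes. The 12 called genes are red and lie off the dashed line of equal response, Egr1, Fos and Ccn1 to the far left, Mmp12 at the top and Mmrn2 alone below the line.

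Egr1, Fos and Ccn1 are immediate early genes. The promoters of Fos and Ccn1 are shown because both genes were lower in B6 GMA-MS lungs than in B6 sham lungs (RefSeq, GRCm38.p6, 250 bases ending 1 base before the start; Fos at chr12:85473640-85473889 on the plus strand and Ccn1 at chr3:145649986-145650235 on the minus strand). Capitals mark the longest run of bases that both windows hold, CAGTGACGTAG, which Ccn1 has on the opposite strand as CTACGTCACTG, and the TATA box TATAAA.
Fos: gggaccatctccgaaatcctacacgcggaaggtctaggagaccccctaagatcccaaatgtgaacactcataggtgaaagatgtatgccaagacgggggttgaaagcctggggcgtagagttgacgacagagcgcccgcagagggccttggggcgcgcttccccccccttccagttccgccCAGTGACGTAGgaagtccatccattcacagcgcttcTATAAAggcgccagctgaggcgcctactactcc
Ccn1: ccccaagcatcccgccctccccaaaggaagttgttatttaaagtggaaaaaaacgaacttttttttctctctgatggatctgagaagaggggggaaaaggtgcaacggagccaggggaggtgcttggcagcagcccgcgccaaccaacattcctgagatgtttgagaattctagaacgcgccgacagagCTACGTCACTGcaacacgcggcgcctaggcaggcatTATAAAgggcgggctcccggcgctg
The shared run is 11 bases long, lies 69 to 59 bases before the start of Fos and 61 to 51 bases before that of Ccn1, and contains TGACGT, the core of the cAMP response element. Of 32851 promoter windows of the same length, 9 (0.0274%) held the whole run on either strand, among them those of Fos and Ccn1. The run was chosen from these 2 windows, so that its rarity follows from the choice and is no finding. TGACGT was in 6.47% of all windows and TATAAA, searched on the sense strand, in 7.59%. A promoter window was at hand for 9 of the 12 called genes, 11 windows in all, and not for Egr1, Kdm3b or Mmrn2. TGACGT was in 4 of the 11 windows, those of Ccn1, Fos, Hmgb1 and Vps4b, and TATAAA in 2, those of Ccn1 and Fos. The full element TGACGTCA, which contains that core (1.55% of all windows), the D-box TTATGTAA (0.819%) and the CArG box (1.47%) were in none. The E-box CACGTG (6.02%) was in that of Hmgb1, the ROR element AGGTCA (14%) in those of Mmp12 and Pcna, the heat shock element GAANNTTC (6.69%) in that of Pcna, and the AP-1 site TGAGTCA (4.46%) in that of Mmp12. Except for the TATA box the motifs were searched on both strands, and the core, the TATA box, the CArG box and the AP-1 site were added with the results known. A match is a match of letters in a window and no measure of binding. Bases further than 250 before the start were not searched, so that a motif absent here may lie outside the window.

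Egr1 encodes a zinc finger transcription factor. Its log2 intensities on beadchips 1 to 4 were 11.32, 10.92, 11.71 and 11.18 in A/J sham lungs and 11.09, 11.35, 11.12 and 11.41 in A/J GMA-MS lungs. In B6 they were 13.34, 12.37, 12.94 and 12.65 in sham lungs and 11.31, 10.85, 11.08 and 11.36 in GMA-MS lungs. The 4 B6 sham lungs stood apart, and the other 3 groups overlapped. The response was -0.04 (SE 0.16) in A/J and -1.68 (SE 0.16, adjusted p = 2.02e-05) in B6, a fall of 3.2-fold, and the difference was 1.64 (SE 0.22, adjusted p = 0.00197).

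Fos, a subunit of the AP-1 transcription factor, had 10.08, 10.58, 10.36 and 10.77 in A/J sham lungs and 10.05, 10.96, 10.45 and 10.68 in A/J GMA-MS lungs. B6 lungs had 11.30, 11.39, 12.03 and 11.03 in sham lungs and 9.55, 10.30, 9.97 and 10.47 in GMA-MS lungs. The sham and GMA-MS lungs of B6 were separate, and those of A/J covered the same range. The difference in response was 1.45 (SE 0.27, adjusted p = 0.0293), from 0.09 in A/J and -1.37 (adjusted p = 0.00171) in B6. On single beadchips it ran from 0.47 to 2.15.

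Ccn1, a matricellular protein of vascular and epithelial repair, had 9.54, 9.43, 9.80 and 9.33 in A/J sham lungs and 9.32, 10.31, 9.43 and 9.64 in A/J GMA-MS lungs. B6 lungs had 10.85, 10.73, 10.42 and 10.32 in sham lungs and 8.97, 9.42, 9.31 and 9.56 in GMA-MS lungs. The A/J GMA-MS lung on beadchip 2 came just below the lowest B6 sham lung, and the other A/J lungs lay further down. The difference was 1.42 (SE 0.24, adjusted p = 0.0176), from 0.15 in A/J and -1.27 (adjusted p = 0.00171) in B6, and the second probe of the gene gave 0.74 (SE 0.17).

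In these 3 genes the B6 sham lungs were above all 20 other arrays of the time point. The lowest B6 sham value against the highest of the other arrays was 12.37 against 11.71 for Egr1, 11.03 against 10.96 for Fos and 10.32 against 10.31 for Ccn1. The strains differed in sham lungs by -1.54 for Egr1 (A/J minus B6, adjusted p = 2.31e-07), -0.99 for Fos (adjusted p = 4.80e-04) and -1.05 for Ccn1 (adjusted p = 8.21e-05). After GMA-MS the gaps were 0.09 (adjusted p = 0.679), 0.46 (adjusted p = 0.0656) and 0.36 (adjusted p = 0.110). Over all genes, 32.2% passed the test between the sham groups and 37% between the GMA-MS groups.

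Of 35 immediate early genes listed, 26 were tested. The response was higher in A/J for 3 of them at the adjusted threshold and for 9 at an unadjusted p under 0.05, with 0 lower, where 0.127% and 6.01% of all genes were higher and 5.55% lower at the unadjusted threshold. This list and the others were chosen with earlier results of these data known. The study also names some of their members from the same arrays, so that list counts are not independent evidence. For the immediate early genes the median difference was 0.19. The median response was -0.08 in A/J and -0.27 in B6, and in B6 7 of the 26 passed the test, all of them lower (0.242% of all genes). Among those 7 besides the called genes, Fosb gave -0.75 in B6 (adjusted p = 0.00656; difference 0.54, adjusted p = 0.258), Nr4a2 -0.55 (adjusted p = 0.00149; difference 0.29, adjusted p = 0.288) and Atf3 -0.53 (adjusted p = 0.0496; difference 0.48, adjusted p = 0.275). Fosb was detected on 0 of 4 A/J GMA-MS and 1 of 4 B6 GMA-MS arrays, Atf3 on 1 of 4 and 0 of 4, so that their differences rest on values at background. Ptgs2, the inducible cyclooxygenase, detected on 0 of 4 B6 GMA-MS arrays, had the difference nearest to the threshold, 0.61 (SE 0.13, adjusted p = 0.0837). The vascular factors Klf2 and Klf4 did not pass, with differences of 0.02 (SE 0.18) and -0.06 (SE 0.22). The mean log2 level of the list was 10.89 to 11.06 in B6 sham lungs, 10.48 to 10.68 in B6 GMA-MS lungs, 10.55 to 10.79 in A/J sham lungs and 10.55 to 10.65 in A/J GMA-MS lungs. The level of 15 neutrophil genes ran from 10.74 to 11.42 in B6 sham lungs and from 10.49 to 10.83 after GMA-MS, against 10.71 to 10.93 and 10.75 to 11.04 in A/J, and its part in these results was not tested.

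Mmp12 encodes macrophage elastase, which cleaves elastin in the alveolar wall. It had 8.42, 8.64, 8.43 and 8.64 in A/J sham lungs and 10.22, 10.999, 10.15 and 10.02 in A/J GMA-MS lungs. B6 sham lungs had 8.002, 7.98, 7.99 and 7.98, with the probe detected on 3 of 4 arrays, and B6 GMA-MS lungs 8.40, 8.62, 8.58 and 8.43. In both strains every GMA-MS lung was above every sham lung, and the A/J GMA-MS lungs were above all B6 lungs. The response was 1.81 in A/J (SE 0.15, adjusted p = 3.33e-06), a 3.51-fold rise, and 0.52 in B6 (SE 0.15, adjusted p = 0.206), and the difference was 1.29 (SE 0.22, adjusted p = 0.0155). The B6 sham level lay near the floor of the scale, where the offset of the background correction compresses differences.

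Mmp12 was 1 of 26 tested genes on the list of macrophage and particle load genes, and the other 25 did not pass (0.138% of all genes passed). The list had 3 genes higher and 1 lower at an unadjusted p under 0.05 (6.01% and 5.55% of all genes) and a median difference of 0.08. Its mean level was 11.16 to 11.2 in A/J sham lungs and 11.33 to 11.45 after GMA-MS, against 11.08 to 11.25 and 11.24 to 11.3 in B6. Gpnmb, a glycoprotein of laden macrophages, rose in B6 (0.66, adjusted p = 0.0341) and had 0.48 in A/J (adjusted p = 0.0825), a difference of -0.17 (SE 0.19). Ctsk, cathepsin K, and Trem2, a lipid receptor, rose in A/J (0.65, adjusted p = 0.0281; 0.38, adjusted p = 0.0464), with differences of 0.25 (SE 0.20) and 0.16 (SE 0.13). Marco, the scavenger receptor for unopsonized particles, had 0.71 in A/J and 0.67 in B6, a difference of 0.04 (SE 0.29, adjusted p = 0.972).

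**Figure D2:**
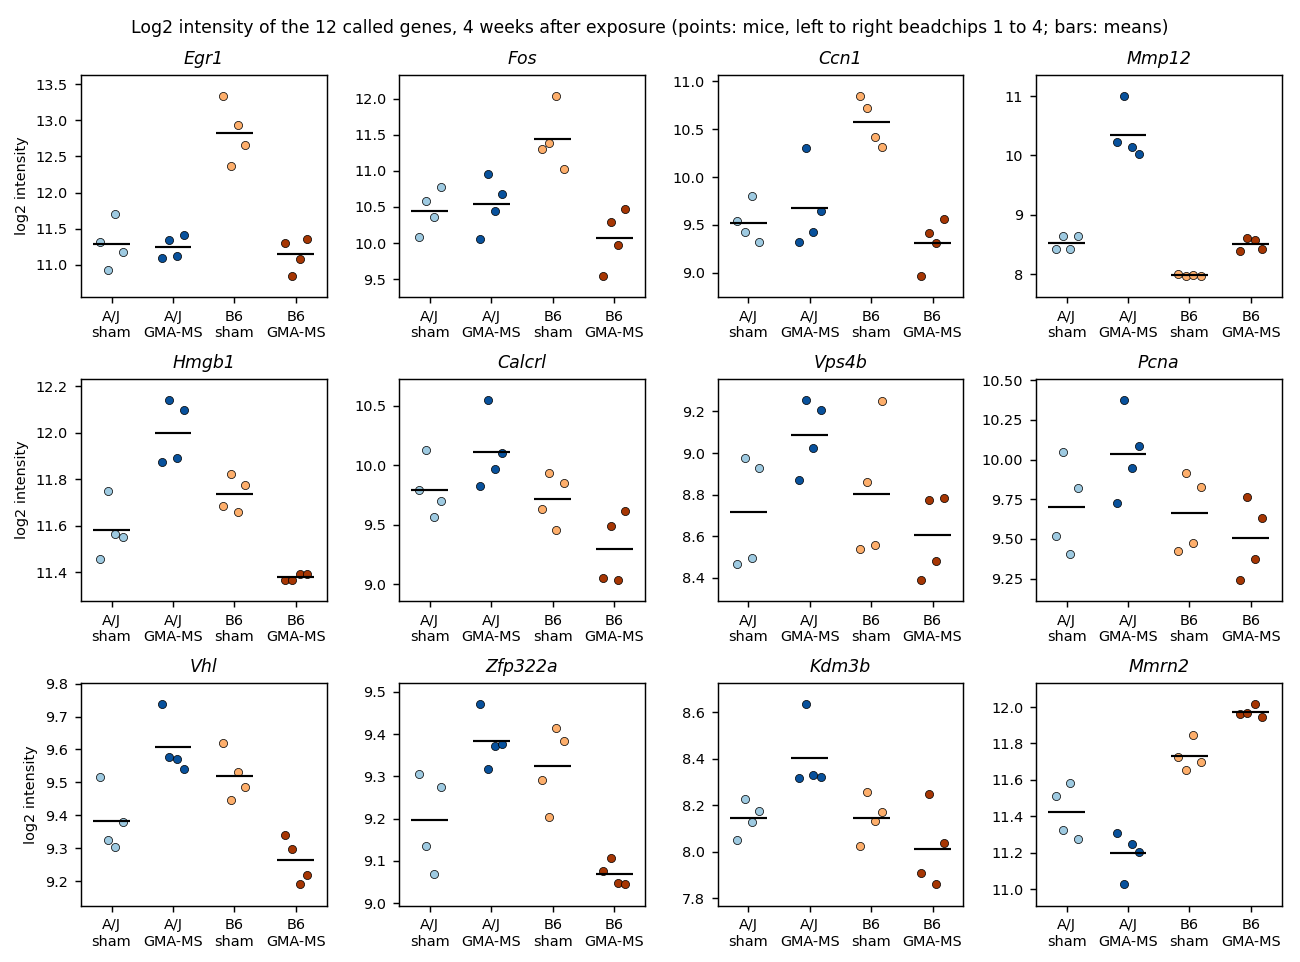
Log2 intensity (y axis) of the 12 called genes in the 4 groups of 4 mice (x axis), each point a mouse and each bar a group mean, with the beadchips in order from left to right within a group. B6 sham lungs stand above the rest for Egr1, Fos and Ccn1, A/J GMA-MS lungs for Mmp12, and for the other 8 genes except Pcna the GMA-MS lungs of the strains do not overlap.

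Hmgb1 encodes a chromatin protein that acts as an alarmin once it leaves the cell. It had 11.46, 11.75, 11.57 and 11.55 in A/J sham lungs and 11.87, 12.14, 11.89 and 12.10 in A/J GMA-MS lungs. The B6 values were 11.69, 11.82, 11.66 and 11.77 in sham lungs and 11.37, 11.37, 11.39 and 11.39 in GMA-MS lungs. The groups did not overlap within either strain. It rose by 0.42 in A/J (adjusted p = 0.00537) and fell by 0.35 in B6 (adjusted p = 0.0237), a difference of 0.77 (SE 0.10, adjusted p = 0.00148). The gene's other probe did not pass the detection filter and gave a difference of -0.03 (SE 0.05).

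Vhl encodes the subunit of a ubiquitin ligase that recognises hypoxia inducible factor. It had 9.52, 9.33, 9.30 and 9.38 in A/J sham lungs and 9.74, 9.58, 9.57 and 9.54 in A/J GMA-MS lungs. The B6 values were 9.62, 9.44, 9.53 and 9.48 in sham lungs and 9.34, 9.30, 9.19 and 9.22 in GMA-MS lungs. As with Hmgb1, the GMA-MS lungs were all higher than the sham lungs in A/J and all lower in B6. It rose by 0.22 in A/J (adjusted p = 0.0173) and fell by 0.26 in B6 (adjusted p = 0.0109), a difference of 0.48 (SE 0.06, adjusted p = 0.00158).

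Calcrl encodes the receptor that, with Ramp2, binds adrenomedullin on endothelium. It had 9.79, 10.13, 9.57 and 9.70 in A/J sham lungs and 9.82, 10.55, 9.97 and 10.11 in A/J GMA-MS lungs. B6 lungs had 9.63, 9.93, 9.46 and 9.85 in sham lungs and 9.06, 9.49, 9.04 and 9.62 in GMA-MS lungs. The groups overlapped within each strain, but on every beadchip the GMA-MS lung was above the sham lung in A/J and below it in B6. The difference was 0.73 (SE 0.12, adjusted p = 0.0111), from 0.31 in A/J (adjusted p = 0.0697) and -0.42 in B6 (adjusted p = 0.0309).

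Calcrl was the 1 called gene of 41 endothelial genes tested (0.138% of all genes were called). The list had 5 higher and 1 lower at an unadjusted p under 0.05 (6.01% and 5.55% of all genes) and a median of 0.05. The level of the whole list was 12.09 to 12.27 and 12.23 to 12.32 in A/J sham and GMA-MS lungs and 12.16 to 12.22 and 12.23 to 12.29 in B6. Kank3, an endothelial ankyrin repeat protein, rose in A/J (0.55, adjusted p = 0.0138), and the strain difference was 0.36 (SE 0.15, adjusted p = 0.364). Npr3, the natriuretic peptide clearance receptor, had 0.60 in A/J (adjusted p = 0.0490) and 0.58 in B6 (adjusted p = 0.105), a difference of 0.02 (SE 0.21).

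Pcna, the sliding clamp of DNA replication, had 9.52, 10.05, 9.41 and 9.82 in A/J sham lungs and 9.73, 10.37, 9.95 and 10.09 in A/J GMA-MS lungs. The B6 values were 9.42, 9.92, 9.47 and 9.83 in sham lungs and 9.24, 9.77, 9.37 and 9.63 in GMA-MS lungs. All 4 groups overlapped in part, and the beadchips moved together, with beadchip 2 highest in all 4 groups. It rose by 0.34 in A/J (adjusted p = 0.00537) and had -0.16 in B6 (adjusted p = 0.315), a difference of 0.49 (SE 0.08, adjusted p = 0.0111). Of 18 cell division genes tested Pcna alone was called (0.138% of all genes were called). The list had 1 more gene (Stmn1, 0.28, SE 0.11) at an unadjusted p under 0.05 (11.6% of all genes), and its median was -0.03.

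Vps4b encodes an ATPase that disassembles the ESCRT machinery of membrane scission. It had 8.47, 8.98, 8.50 and 8.93 in A/J sham lungs and 8.87, 9.25, 9.02 and 9.21 in A/J GMA-MS lungs. B6 lungs had 8.54, 8.86, 8.56 and 9.25 in sham lungs and 8.39, 8.77, 8.48 and 8.78 in GMA-MS lungs. The GMA-MS lungs of the strains did not overlap, and the sham lungs did. It rose by 0.37 in A/J (adjusted p = 0.0120) and had -0.19 in B6 (adjusted p = 0.333), a difference of 0.57 (SE 0.10, adjusted p = 0.0191).

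Zfp322a, a zinc finger protein, had 9.31, 9.14, 9.07 and 9.27 in A/J sham lungs and 9.47, 9.32, 9.37 and 9.38 in A/J GMA-MS lungs. In B6 it had 9.29, 9.20, 9.42 and 9.38 in sham lungs and 9.08, 9.11, 9.05 and 9.04 in GMA-MS lungs. The groups were separate within both strains, although neither response passed the test alone. The values were 0.19 in A/J (adjusted p = 0.119) and -0.25 in B6 (adjusted p = 0.0628), and the difference was 0.44 (SE 0.08, adjusted p = 0.0293).

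Kdm3b, a demethylase of histone H3 lysine 9, had 8.05, 8.23, 8.13 and 8.18 in A/J sham lungs and 8.32, 8.63, 8.33 and 8.32 in A/J GMA-MS lungs. In B6 it had 8.03, 8.26, 8.13 and 8.17 in sham lungs and 7.91, 8.25, 7.86 and 8.04 in GMA-MS lungs, where it was detected on 2 of 4 arrays. The A/J GMA-MS lungs were above all others, and the B6 lungs overlapped. It rose by 0.26 in A/J (adjusted p = 0.0227) and had -0.13 in B6 (adjusted p = 0.407), a difference of 0.39 (SE 0.08, adjusted p = 0.0441), the one nearest to the threshold. Kdm3b and Egr1 lie on the same chromosome with Reep2 and a long noncoding RNA between them in the RefSeq annotation.

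Mmrn2, or multimerin 2, is a glycoprotein of the endothelial matrix and was the only gene with a lower response in A/J. It had 11.51, 11.32, 11.58 and 11.28 in A/J sham lungs and 11.31, 11.03, 11.25 and 11.21 in A/J GMA-MS lungs. In B6 it had 11.72, 11.65, 11.85 and 11.70 in sham lungs and 11.96, 11.97, 12.01 and 11.95 in GMA-MS lungs. The B6 lungs were above the A/J lungs in both exposures and further above after GMA-MS, and the A/J groups overlapped. The values were -0.23 in A/J (adjusted p = 0.0705) and 0.24 in B6 (adjusted p = 0.105), and the difference was -0.47 (SE 0.09, adjusted p = 0.0285).

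Over the 12 genes, the GMA-MS and sham lungs did not overlap for 5 in A/J (3.12% of all genes) and for 8 in B6 (3% of all genes). The sham lungs of the strains did not overlap for 5 (19.6% of all genes) and the GMA-MS lungs for 8 (21.9% of all genes). On beadchip pairs, 7 genes were higher in the GMA-MS lung in 4 of 4 A/J pairs and lower in 4 of 4 B6 pairs. The share of all genes with that pattern was not counted. The strain difference had the same sign on all 4 beadchips for 12 of 12 genes (20.2% of all genes). These counts come from the arrays that gave the calls and are no separate evidence for them. With each of the 16 arrays left out in turn, Egr1, Hmgb1, Calcrl, Pcna and Vhl were called in 16 of 16 fits, Mmp12 in 15, Ccn1 in 13, Vps4b in 11, Fos, Zfp322a and Mmrn2 in 6 and Kdm3b in 2. Without the beadchip block the adjusted p was 0.988 for Calcrl, 0.9997 for Pcna and 0.102 for Vhl. Calcrl and Pcna were also lost when the fit held only the 16 arrays of the 4 groups.

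**Figure D3:**
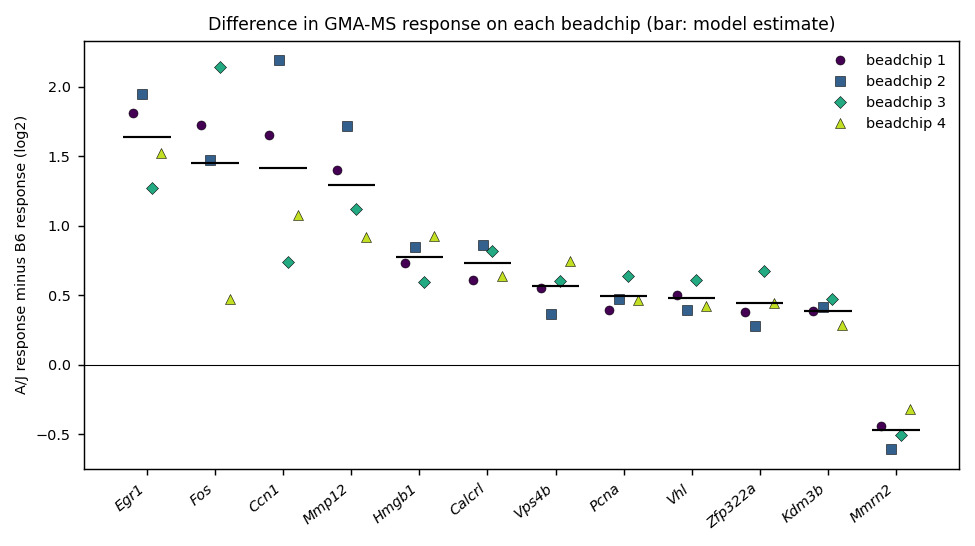
Difference between the A/J and B6 response to GMA-MS (y axis, log2) on each of the 4 beadchips (symbols) for the 12 called genes (x axis), with the estimate of the model as a bar. All symbols are above 0 for 11 genes and below 0 for Mmrn2, and Fos has the widest spread, 0.47 to 2.15.

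The GMA-SS lungs of the same beadchips show the 12 genes under the other fume, against the same sham lungs. Egr1, Fos and Ccn1 were lower in B6 after GMA-SS as well, by -1.57 (adjusted p = 5.60e-05), -1.15 (adjusted p = 0.0122) and -1.32 (adjusted p = 0.00156), and had -0.28, -0.16 and -0.38 in A/J, none past the threshold. Mmp12 was higher after GMA-SS in both strains, 2.07 in A/J (adjusted p = 3.40e-07) and 1.12 in B6 (adjusted p = 0.00180). The other 8 genes passed in neither strain after GMA-SS (0 of 8, where 0.806% of all genes were called in A/J and 0.196% in B6), and their values were at most 0.198 from 0 in A/J and 0.113 in B6. Whether the fumes differed for these genes was not tested.

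At 16 weeks of recovery other mice on other beadchips gave 27 of 8710 genes (0.31%) with a strain difference in the GMA-MS response, all 27 higher in A/J. Of the 12 genes called at 4 weeks, 11 kept their sign, against 64.4% of the 8497 genes tested at both times. Calcrl (0.48, SE 0.08, adjusted p = 0.00738) and Pcna (0.52, SE 0.09, adjusted p = 0.0137) were called again, and 7 of the 12 had an unadjusted p under 0.05 (12.3% of all genes). Hmgb1 had 0.43 (SE 0.12, adjusted p = 0.127), Vhl 0.29 (SE 0.08, adjusted p = 0.116), Vps4b 0.32 (SE 0.09, adjusted p = 0.113) and Zfp322a 0.33 (SE 0.10, adjusted p = 0.173). Mmp12 had 0.87 (SE 0.34, adjusted p = 0.286) and Kdm3b 0.12 (SE 0.06, adjusted p = 0.441). The immediate early genes gave smaller values with wide errors, Egr1 0.67 (SE 0.41), Fos 0.34 (SE 0.42) and Ccn1 0.43 (SE 0.23), and Mmrn2 changed sign to 0.09 (SE 0.09). The groups of 16 weeks had the same array positions as those of 4 weeks, and the 2 times were not compared by a test.

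**Figure D4:**
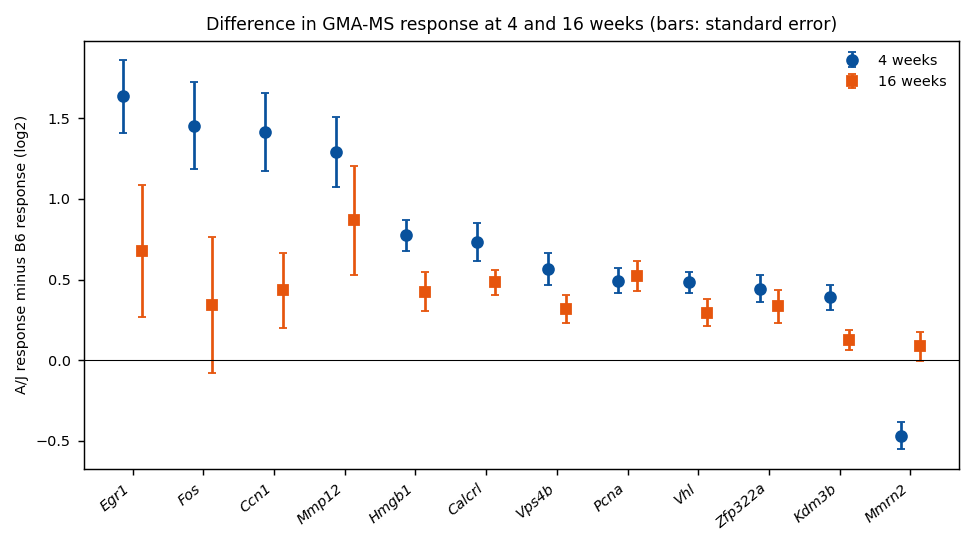
Difference between the A/J and B6 response to GMA-MS (y axis, log2, with its standard error) for the 12 called genes (x axis) at 4 weeks (circles) and 16 weeks (squares). The 16 week value is above 0 for 11 genes that were above 0 at 4 weeks, and Pcna is the gene whose 2 values are closest, 0.49 and 0.52, while Mmrn2 moves from -0.47 to 0.09.

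The genes that the study names for GMA-MS at 4 weeks numbered 25, of which 22 were tested and 3 (Egr1, Fos and Mmp12) were called, against 0.138% of all genes. Of the 19 that were not called, 8 had an unadjusted p under 0.05, against 11.6% of all genes. The study picked these genes from the same arrays, so that the counts are not independent evidence. For Cfb it reports an array increase after GMA-SS only. It also measured Cfb, Lcn2 and Mmp12 by quantitative PCR in A/J lungs of both fumes at 4 weeks, with RNA samples that were also on the arrays. Nr1d1, a clock repressor, rose in both strains, by 1.43 in A/J (adjusted p = 0.0161) and 1.58 in B6 (adjusted p = 0.0135), a difference of -0.15 (SE 0.40). Ccl6, a macrophage chemokine, also rose in both, by 0.49 (adjusted p = 0.0433) and 0.55 (adjusted p = 0.0383), a difference of -0.06 (SE 0.17). Ch25h, which makes 25-hydroxycholesterol, rose in A/J (1.02, adjusted p = 0.00343) and had 0.66 in B6 (adjusted p = 0.0801), a difference of 0.37 (SE 0.22). Depp1, a FOXO target, had a difference of -0.11 (SE 0.21) and S100a9, a neutrophil alarmin, 0.61 (SE 0.38).

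Genes of the circadian clock had 3 of 14 members with a higher response in A/J at an unadjusted p under 0.05 (6.01% of all genes), 0 lower (5.55% of all genes) and a median difference of 0.08. None passed the adjusted test. Dbp, a clock output factor, rose 4.45-fold in A/J (2.15, adjusted p = 0.00256) and had 0.73 in B6 (adjusted p = 0.452), a difference of 1.43 (SE 0.45, adjusted p = 0.248). Its relative Tef rose in A/J (0.60, adjusted p = 0.00256; difference 0.42, SE 0.12), as did the repressors Cry2 (0.45, adjusted p = 0.0161; difference 0.32, SE 0.13) and Per2 (0.92, adjusted p = 0.0460; difference 0.64, SE 0.31). On beadchips 1 to 4 the difference was 2.21, -0.11, 2.36 and 1.24 for Dbp. For Per2 it was 1.25, -0.01, 1.63 and -0.32. Neither the labels nor the text of the study give the hour at which lungs were taken, and its part was not tested. Nr1d2, the partner of Nr1d1, had -0.04 in A/J (adjusted p = 0.901) and -0.17 in B6 (adjusted p = 0.733), a difference of 0.13 (SE 0.18). The study names Nr1d2 among the altered genes of its top A/J network.

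Among 22 glucocorticoid responsive genes 5 were higher and 2 lower at an unadjusted p under 0.05 (6.01% and 5.55% of all genes), with a median of 0.08. Zbtb16, a zinc finger factor induced by glucocorticoids, rose in A/J (1.72, adjusted p = 0.0115) and had 0.43 in B6 (adjusted p = 0.733), a difference of 1.29 (SE 0.46, adjusted p = 0.288). It was detected on 1 of 4 A/J sham and 2 of 4 B6 sham arrays, so that these sizes are taken in part against values at background. Glul, glutamine synthetase, rose in A/J (0.70, adjusted p = 0.0419; difference 0.64, SE 0.23). Angptl4, an inhibitor of lipoprotein lipase, had the most negative difference of the list, -0.97 (SE 0.39, adjusted p = 0.336).

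Chemokines and their receptors had 4 of 29 genes higher and 1 lower at an unadjusted p under 0.05 (6.01% and 5.55% of all genes) and a median of 0.12. Cxcl1, a neutrophil chemoattractant, rose in A/J (1.29, adjusted p = 0.00256) and had 0.11 in B6 (adjusted p = 0.890), a difference of 1.18 (SE 0.26, adjusted p = 0.0838). Ccl4, a monocyte chemoattractant, rose in A/J (0.86, adjusted p = 0.0490; difference 0.98, SE 0.30, adjusted p = 0.240), and the related Ccl3 had a difference of 0.52 (SE 0.19), with 0 of 4 A/J sham arrays detected. In the list of acute phase and complement genes, 5 of 16 were higher and 1 lower (6.01% and 5.55% of all genes), with a median of 0.01. Lcn2, a siderophore binding protein, rose in A/J (1.28, adjusted p = 9.08e-04; difference 0.80, SE 0.23, adjusted p = 0.203), and Saa3, an acute phase apolipoprotein, did too (1.44, adjusted p = 0.0110; difference 1.08, SE 0.38, adjusted p = 0.283). Cfb, complement factor B, had a difference of 0.43 (SE 0.19). Il1b, which is on this list and on that of neutrophil genes, fell in B6 by 1.10 (adjusted p = 0.0237) and had a difference of 0.73 (SE 0.30, adjusted p = 0.344).

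Of 15 neutrophil genes 14 (93.3%) had a positive difference, against 3916 of all 8687 genes (45.1%). At an unadjusted p under 0.05, 3 of the 15 were higher (6.01% of all genes), and the median was 0.22. Members of a list are not independent, and squamous epithelium genes, with 0 at that threshold, had 11 of 12 positive (91.7%). The neutrophil list level in B6 sham lungs ran from 10.74 to 11.42 with a mean of 10.95. S100a9 was 13.40 in the B6 sham lung on beadchip 1. Its difference was 2.03 on that beadchip and 0.31, -0.57 and 0.65 on the others. The weight of that lung in the share was not tested. Lymphocyte and antigen presentation lists lay on the other side of 0. Their counts are at an unadjusted p under 0.05, where 6.01% of all genes were higher and 5.55% lower. T and natural killer cell genes had a median of -0.17 over 12 genes (0 higher, 1 lower), interferon responsive genes -0.21 over 23 (1 higher, 1 lower) and MHC class II presentation genes -0.23 over 11 (1 higher, 4 lower). H2-DMa, Cd74, Ciita and H2-DMb1, which load, chaperone and regulate class II molecules, had -0.52, -0.41, -0.70 and -0.51, with adjusted p values of 0.289 to 0.412. The level of the class II list differed between strains without fume, at 10.9 to 11.08 in A/J sham lungs and 11.91 to 12.23 in B6 sham lungs. After GMA-MS it was 10.68 to 11.18 in A/J and 12.12 to 12.27 in B6. B cell and plasma cell genes had a median of -0.04 over 15 genes, with 0 at an unadjusted p under 0.05.

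Collagens and matrix genes had 0 of 27 higher and 5 lower at an unadjusted p under 0.05 (6.01% and 5.55% of all genes) and a median of -0.02. The 5 were Col1a1 (-0.38, SE 0.12), the cross-linking enzyme Loxl1 (-0.25, SE 0.09), tenascin Tnc (-0.41, SE 0.15), Col15a1 (-0.21, SE 0.10) and Col5a1 (-0.22, SE 0.10), with adjusted p values of 0.248 to 0.420. Genes of iron, manganese and metal binding had 4 of 22 higher and 1 lower and a median of 0.10, with the copper ferroxidase Cp at 0.35 (SE 0.13) and the metal binding Mt1 at -0.30 (SE 0.11). Targets of NRF2 had 1 of 25 higher and 3 lower and a median of 0.03, and Hmox1, heme oxygenase, rose in B6 (0.30, adjusted p = 0.0237) with a difference of -0.18 (SE 0.08, adjusted p = 0.397).

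Endoplasmic reticulum stress genes had 2 of 20 higher and 1 lower at an unadjusted p under 0.05 (6.01% and 5.55% of all genes) and a median of -0.03. Creld2 rose in A/J (0.48, adjusted p = 0.00377), with a difference of 0.22 (SE 0.11). Heat shock chaperones had 0 of 13 genes at an unadjusted p under 0.05 and a median of -0.07. In the EGF receptor family 2 of 10 genes were higher, with a median of 0.03, and the receptor Egfr rose in A/J (0.48, adjusted p = 0.00867; difference 0.37, SE 0.12, adjusted p = 0.256). Cholesterol and oxysterol genes had 0 of 16 higher and 2 lower, with a median of -0.06. Of 18 surfactant, alveolar and club cell genes 1 was higher and 1 lower (median 0.03). Of 10 ciliated cell genes 1 was higher and 0 lower, 2 had a positive difference (45.1% of all genes), and the median was -0.09.

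Squamous epithelium genes had the highest list median, 0.57 over 12 genes, but 0 had an unadjusted p under 0.05, and the list level ran from 7.84 to 11.18 in B6 sham lungs and from 7.86 to 11.23 in B6 GMA-MS lungs, with like ranges in A/J. The keratin Krt13 gave 2.75 with a standard error of 2.84. Skeletal muscle genes had a median of 0.37 over 12 genes and levels of 7.90 to 11.31 in B6 sham lungs. Cardiac muscle genes had a median of 0.12 over 18 genes (1 lower), adipose tissue genes -0.30 over 9 (0 at an unadjusted p under 0.05), stomach and intestine genes -0.01 over 7 (1 lower) and red blood cell genes 0.11 over 6 (1 higher). At an unadjusted p under 0.05, 6.01% of all genes were higher and 5.55% lower. The part of these tissues in the 12 called genes was not tested.

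**Figure D5:**
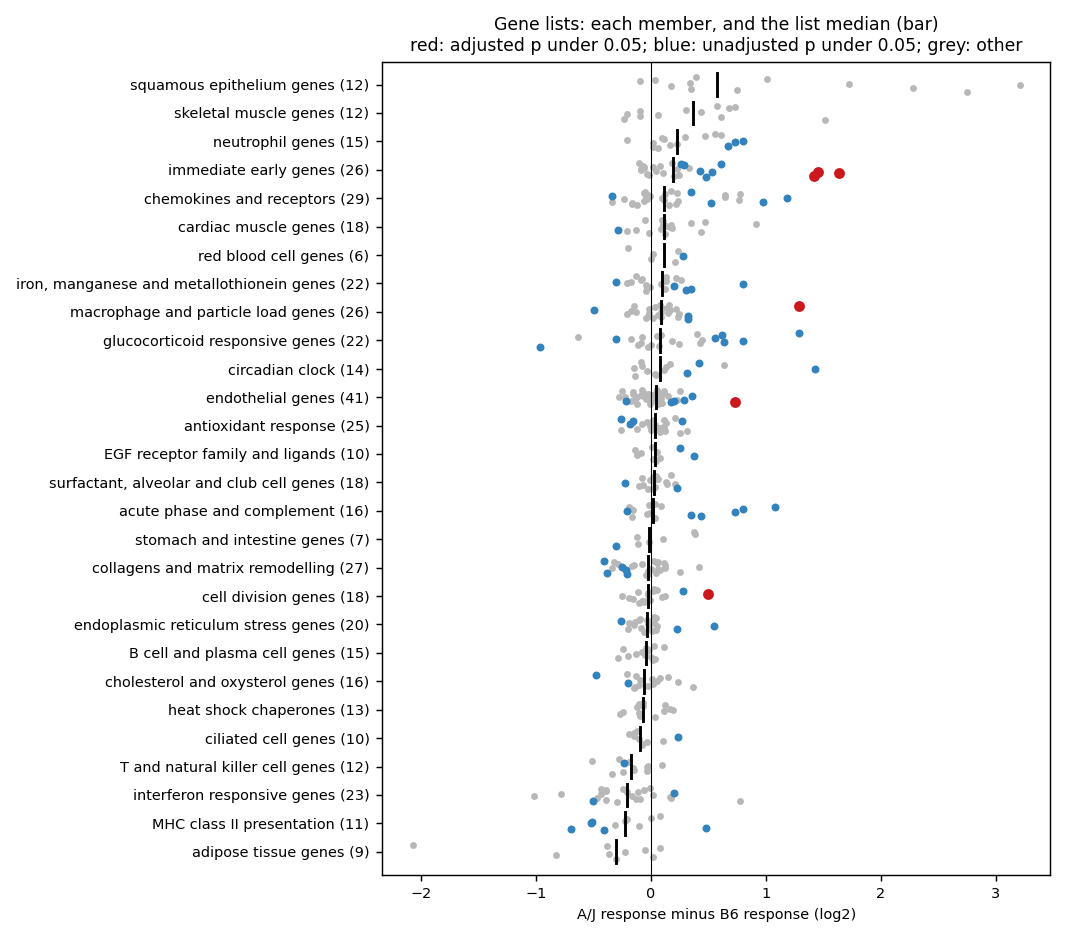
Difference between the A/J and B6 response to GMA-MS (x axis, log2) for every tested member of 28 gene lists (y axis, members tested in brackets), with the list median as a bar, called members in red and members at an unadjusted p under 0.05 in blue. The 6 red points are Egr1, Fos and Ccn1 among immediate early genes, Mmp12, Calcrl and Pcna, and squamous epithelium and muscle genes have wide spreads with no coloured point on the right.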

How the data were processed

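Total RNA of whole lungs was hybridised to MouseRef-8 v1.1 beadchips (Illumina), 48 arrays in all. The authors deposited mean bead intensity values with bead standard errors and bead numbers from BeadStudio, without normalization, the detection p-values of each probe against negative controls, and values on a log2 scale made in lumi. Intensities of the 24 arrays of a time point were background corrected and quantile normalized with neqc (offset 16) in limma 3.58.1, R 4.3.3. Probes with a detection p under 0.01 in at least 4 of 24 arrays were kept, 1 probe per gene, the brightest. Gene names followed the platform annotation, through Entrez IDs to RefSeq (20966 of 20982 probes with 1 gene). A model of 6 groups with beadchip as block was fitted with limma, and p values were adjusted by Benjamini-Hochberg over all genes. The labels put same-numbered arrays on 1 beadchip, and their deviations from group means correlated at 0.258 to 0.434 on average within a chip and at -0.119 between chips. The code was tested on simulated data. Sample groups came from the labels. Members and the 28 gene lists were chosen with earlier results of these data known. Named genes were the called ones with 1 sign on all 4 beadchips (up to 14 in each direction), called list members and genes the study names for GMA-MS at 4 weeks. Genes added in describing lists were those at an unadjusted p under 0.05, or well known members, chosen after their values were seen. Other normalizations, filters, blocks and arrays left out were tried. Figures used matplotlib 3.10.9.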

Additional observations from a re-analysis of the deposited data

Results flagged for a closer look

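The strains differed in their response to GMA-MS at 4 weeks by the test of that difference for 12 genes, Egr1 (1.64), Fos (1.45), Ccn1 (1.42), Mmp12 (1.29), Hmgb1 (0.77), Calcrl (0.73), Vps4b (0.57), Pcna (0.49), Vhl (0.48), Zfp322a (0.44), Kdm3b (0.39) and Mmrn2 (-0.47), as log2 differences of A/J minus B6.

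Among 124 sets of 4 arrays, for the named genes in the 4 groups, 6 had 1 array far from the other 3 by Dixon's ratio of the gap to the range, and chance gives about 1 in 20. The A/J GMA-MS lung on beadchip 2 was high for Ch25h (10.80, next 10.00, ratio 0.832) and for Kdm3b (8.63, next 8.33, ratio 0.959). The A/J GMA-MS lung on beadchip 3 was low for Depp1 (10.77, next 11.58, ratio 0.841). The B6 GMA-MS lung on beadchip 1 was high for Nr1d2 (9.41, next 8.77, ratio 0.895) and low for S100a9 (11.08, next 11.91, ratio 0.878). The B6 sham lung on beadchip 4 was low for Per2 (9.88, next 10.39, ratio 0.916).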

How the results depend on the processing

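The 12 calls became 3 without the replicate block, 5 when arrays were scaled to the median of detected probes in place of quantile normalization, and 4 when the fit held only the 16 arrays of the 4 groups, all of them among the 12. Leaving out 1 array in turn gave 5 to 14 calls, with 5 without B6 GMA-MS replicate 1 and 7 without A/J sham replicate 2 or A/J GMA-MS replicate 3. Egr1 and Hmgb1 were called in all 8 other settings and all 16 fits with 1 array left out. With 1 array left out the adjusted p of Mmp12 passed 0.05 only without B6 GMA-MS replicate 1 (0.0554), that of Ccn1 without B6 sham replicate 1 (0.0501), A/J sham replicate 2 (0.05003) or B6 GMA-MS replicate 1 (0.0554), and that of Vps4b without A/J sham replicate 1 or 3, A/J GMA-MS replicate 3 or B6 GMA-MS replicate 1 or 4 (0.0554 to 0.0660). It ran up to 0.110 for Fos, 0.113 for Zfp322a, 0.0860 for Mmrn2 and 0.145 for Kdm3b. A fit of all detected probes, 1405 of them without a gene name, was added after seeing the data and gave 12 calls, 1 on an unnamed probe. The deposited log2 values kept 10 of the 12, without Zfp322a and Kdm3b. With median scaling Mmp12 had 1.34 (adjusted p = 0.486). Fos was called in 3 of the 8 other settings and was lost also without a detection filter (adjusted p = 0.108) and with an intensity trend and robust variance (0.0560), and Ccn1 was called in 4 and was lost also without a detection filter (0.0584). In A/J the 114 calls became 17 without the replicate block, 63 without a detection filter and 26 to 220 with 1 array left out (26 without sham replicate 1, 50 without sham replicate 3, 220 without sham replicate 2, and 62, 70 and 63 without GMA-MS replicates 1, 2 and 3). In B6 the 40 calls became 7 without the replicate block and 13 to 26 with 1 array left out, whichever it was. At 16 weeks the 27 calls became 10 without the replicate block, 64 without a detection filter and 12 to 35 with 1 array left out, the lowest without B6 sham replicate 2 or 4. The cause of these moves was not tested. Differences near 0 that did not pass the test changed sign: without background correction Marco (-0.0841) and Npr3 (-0.0358), with median scaling Klf2 (-0.0385) and Nr1d2 (-0.20), and with 1 array left out Marco (-0.17 to 0.20), Npr3 (-0.11 to 0.17), Klf2 (-0.14 to 0.17), Klf4 (-0.25 to 0.0702), Nr1d1 (-0.37 to 0.0117), Ccl6 (-0.18 to 0.0142) and Depp1 (-0.26 to 0.0578). Mmp12 and Zbtb16 in sham lungs of B6, Zbtb16 in sham lungs of A/J, and Kdm3b, Fosb, Atf3 and Ptgs2 in B6 GMA-MS lungs lay near background, where the size of a difference is least certain. So did Nr1d2 in the sham and GMA-MS lungs of A/J.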
